A study of Mus musculus with 8 samples.

Results

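Splicing factors and the kinases that phosphorylate them were followed in CCR6+ group 3 innate lymphoid cells (ILC3s), lymphocytes of the gut wall that secrete interleukin 22. The 48 genes were chosen by function as SR proteins, SR-related proteins, kinases, splice-site recognition factors, late spliceosome factors and hnRNPs, and their rows were read from a table of 27179 gene rows by Entrez ID matched to symbols. All 48 were found in the table. The cells were sorted from the large intestine of C57BL/6 mice at steady state, with each library from a single mouse and 4 mice in each of 2 groups. The Zbtb46-sufficient mice (replicates 1 to 4, titled wild type) were Zbtb46 f/f, with floxed copies of the gene for this zinc finger factor, and no Cre is named for them. The Zbtb46-deficient mice (replicates 5 to 8) had the same floxed alleles plus a Cre recombinase, so Cre itself also differed between the groups. Age and sex are not given in the labels. Where a cell population is measured in bulk, fewer cells of a type and less RNA per cell cannot be told apart.

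The spliceosome removes introns in an ordered series of complexes: U1 and SF1 mark the 5' splice site and the branch point, U2AF and the U2 particle with SF3A and SF3B take over the 3' end of the intron, and late factors prepare the catalytic steps. SR proteins bind exonic enhancers and recruit these complexes through domains rich in arginine and serine, and hnRNPs often act against them. The SRPK and CLK kinases phosphorylate those domains, SRPKs mainly in the cytoplasm and CLKs in the nucleus, and so set where SR proteins reside and when they bind RNA. Many SR protein and CLK genes also make transcripts with poison exons or retained introns that yield no full protein. Counts per gene add such transcripts to the productive ones, so a count is not a measure of protein-coding transcript alone.

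Totals per library ran from 25328231 to 33760743 counts, with 10668 to 14410 genes detected. Zbtb46 had 8.02, 48.8, 88.9 and 26.6 CPM (counts scaled to the library total) in sufficient replicates 1 to 4 and 4.82, 0.532, 3.19 and 0.125 CPM in deficient replicates 5 to 8, with no overlap, a log2 fold of -4.31, a standard error of 1.42 and an edgeR adjusted p of 0.885. The 12 ILC3 markers summed to 25699 to 39257 CPM in sufficient and 25604 to 31744 CPM in deficient libraries, with means of 34340 ± 6101 and 27733 ± 2825 CPM. Of the 12, 7 had lower and 5 higher fitted values in deficient libraries, with a median log2 fold of -0.18. An unadjusted edgeR p under 0.05 was found for 4 of them, against 4.1% of all tested genes. The groups did not overlap in 2, both lower, against 2.1% of all tested genes. Among genes averaging 100 CPM or more these shares were 9.14% and 4.16%. Some markers of other cells were high in single libraries: the sum of 9 epithelial markers reached 1386 CPM in sufficient replicate 2, that of 8 stromal and endothelial markers 1174 CPM in sufficient replicate 1 and 481 CPM in deficient replicate 7, and that of 10 macrophage and neutrophil markers 374 and 794 CPM in deficient replicates 5 and 7. Of the 4 tested macrophage and neutrophil markers 3 were higher and 1 lower, with a median log2 fold of 2.90, and 2 had an unadjusted edgeR p under 0.05. The 4 tested ILC2 markers were all lower, with a median of -0.29. The 8 NK cell and ILC1 markers were low in sufficient and higher in most deficient libraries, with sums of 49.3, 69.3, 103 and 247 CPM in sufficient and 599.8, 177, 306 and 293 CPM in deficient libraries. Of the 3 tested 2 were higher and 1 lower, with a median log2 fold of 1.73. Of these 8 markers Prf1 had 0 counts in all 8 libraries. The 8 dendritic cell markers summed to 104 to 176 CPM in sufficient and 145 to 294 CPM in deficient libraries, with higher fitted values for 4 of 4 tested and Siglech at 0 throughout. The part of these other cells in the values of the splicing genes was not tested.

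Srek1, Cwc25 and Clk4, which have the lowest fitted values among the 4 members whose groups did not overlap, are shown first with the bases upstream of their RefSeq start (RefSeq, GRCm38.p6). Of the 48 genes 45 matched an entry of the promoter table. Each sequence holds the 250 bases before the start of the entry's transcript, 5' to 3' on the strand of the gene. Capitals mark the letters TGACG, the core of the cyclic AMP response element, and CCGGAAG, the core of ETS factor sites, each on either strand and merged where matches overlap. Srek1 (chr13:103774609-103774858, minus strand), Cwc25 (chr11:97766614-97766863, minus strand) and Clk4 (chr11:51262864-51263113, plus strand) read as follows.
Srek1: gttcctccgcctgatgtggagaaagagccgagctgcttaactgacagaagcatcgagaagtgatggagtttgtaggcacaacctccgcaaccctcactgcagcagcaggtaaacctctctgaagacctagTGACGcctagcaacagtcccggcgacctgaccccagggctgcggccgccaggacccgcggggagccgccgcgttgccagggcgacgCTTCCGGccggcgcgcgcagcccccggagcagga
Cwc25: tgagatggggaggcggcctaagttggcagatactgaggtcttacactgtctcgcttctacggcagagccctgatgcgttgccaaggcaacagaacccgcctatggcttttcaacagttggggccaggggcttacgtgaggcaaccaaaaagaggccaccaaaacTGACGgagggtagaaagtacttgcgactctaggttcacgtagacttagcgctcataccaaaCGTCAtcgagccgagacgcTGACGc
Clk4: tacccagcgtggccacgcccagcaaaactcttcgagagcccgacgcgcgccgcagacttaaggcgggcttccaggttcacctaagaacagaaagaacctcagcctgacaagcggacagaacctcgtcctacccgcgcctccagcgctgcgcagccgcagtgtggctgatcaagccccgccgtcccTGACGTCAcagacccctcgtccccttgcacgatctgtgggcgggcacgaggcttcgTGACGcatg
All 3 windows hold TGACG, and the window of Clk4 also holds the full palindromic element TGACGTCA. TGACG was present in 24 of the 45 members with a window (53.3%), in 19.8% of 27025 genes with a window and in 34.0% of the 6888 other tested genes with a window. A gene with several windows was counted when any of them matched. The 45 members had 60 windows and the 27025 genes 32851. Of the 60 member windows 51 matched the start of a GENCODE transcript. Some windows, such as those of Rbm25 and Luc7l2, lie inside the RefSeq bounds of the gene, and all were counted. The ETS core was present in 12 of 45 members (26.7%), in 7.83% of all genes and in 18.3% of the other tested genes. Median GC content was 61.8% in the member windows, 60.0% in those of other tested genes and 52.4% in all. A match describes letters in this window and is not evidence of binding.

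Levels differed more than 100-fold between members when scaled to length. CPM were divided by the exon length of RefSeq-linked transcripts in GENCODE M21, which may differ from the annotation the counts were made with. Clk1, a nuclear kinase of SR proteins, stood highest with 1031 ± 244 CPM per kb (SD, n = 8 libraries), followed by the SR protein gene Srsf7 with 928 ± 287. The hnRNP gene Hnrnpa2b1, the U2AF-related gene Rbm39 and the RNA helicase gene Ddx5 had 652 ± 78.5, 651 ± 159.6 and 651 ± 139 CPM per kb, which did not differ beyond their spread. Srsf5 and Son, whose product holds nuclear speckles together, had 469 ± 82.9 and 468 ± 159. At the other end U2af2, the large subunit of U2AF, had 4.42 ± 1.16 CPM per kb and Hnrnpa1 6.09 ± 2.12. Hnrnpa1 has processed pseudogenes of near-identical sequence, and its level is uncertain because the handling of reads with several matches is unknown (not given in the sources used here). Srsf12 had 1 to 2 counts in 3 libraries and 0 in the other 5, where 0 counts allow up to 0.0939 to 0.118 CPM, depending on the library, and was the single member that did not pass the expression filter.

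**Figure D1:**
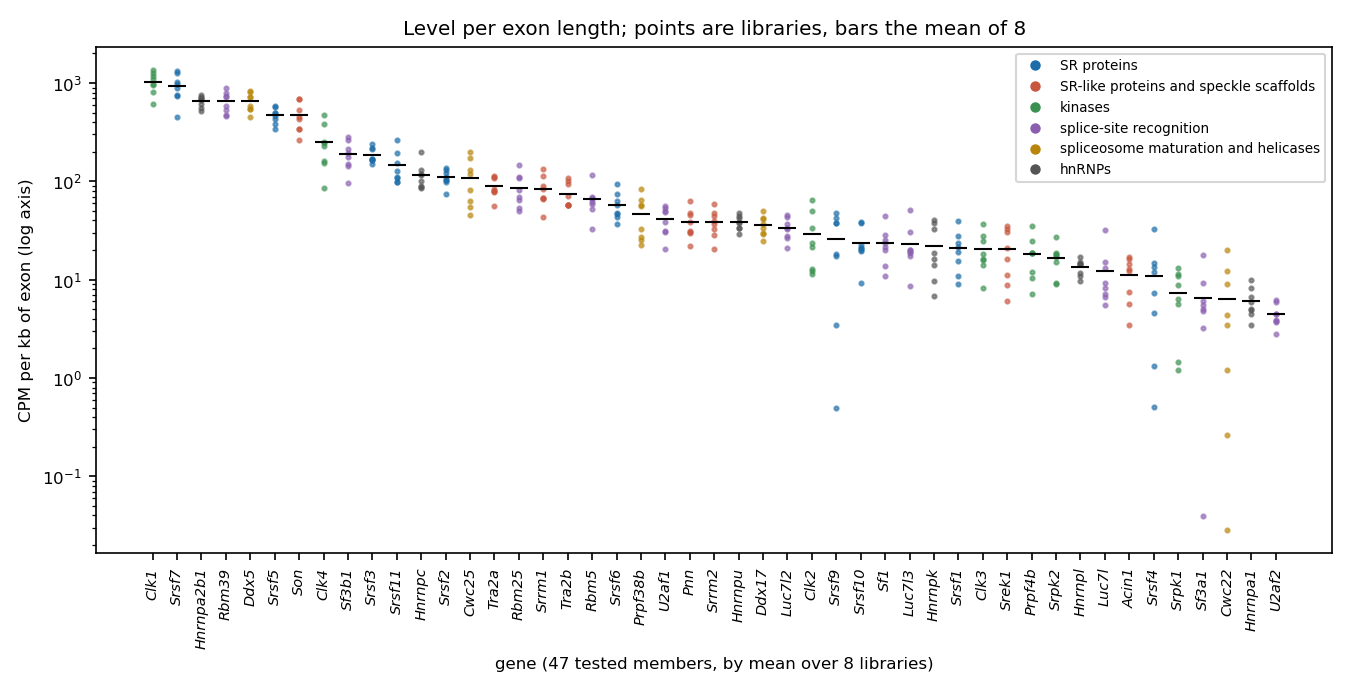
Level of each of the 47 tested members in CPM per kb of exon on a log axis, ordered by the mean of 8 libraries (bars) with 1 point per library, coloured by role. Clk1 and Srsf7 lead at 1031 and 928 CPM per kb, and single libraries of Srsf9, Sf3a1 and Cwc22 lie far below the others.

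The comparison of the 2 groups asks whether transcripts of these genes differ when Zbtb46 is deleted. The genes were picked with results of this comparison known, so the differences are given as a description. In edgeR's quasi-likelihood fit over all 8878 tested genes 0 of the 47 tested members had an adjusted p under 0.05, and 0.0% of all tested genes did. At an unadjusted p under 0.05 there were 5 members (Cwc25, Srek1, Clk4, Srsf1 and Srsf7), all lower in deficient ILC3s, against 4.1% of all tested genes in either direction and 2.0% lower. These 5 all averaged 100 CPM or more, where the shares were 9.14% in either direction and 5.74% lower. DESeq2 called 2 members, Cwc25 and Srek1, at an adjusted p under 0.05, where 3.26% of its genes with an adjusted p were called, and limma-voom called 0. Fitted values were lower in deficient ILC3s for 33 members and higher for 14, with a median log2 fold of -0.22, beside 49.1% lower and a median of 0.02 over all tested genes. Of the 32 members averaging 100 CPM or more 25 were lower, against 55.7% of the 1828 tested genes at that level. The groups did not overlap in 4 members, Cwc25, Srek1, Clk4 and Srsf1, all lower, where 4.36% of all tested genes did not overlap in either direction and 2.1% were lower without overlap (4.16% of genes averaging 100 CPM or more, as these 4 do).

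**Figure D2:**
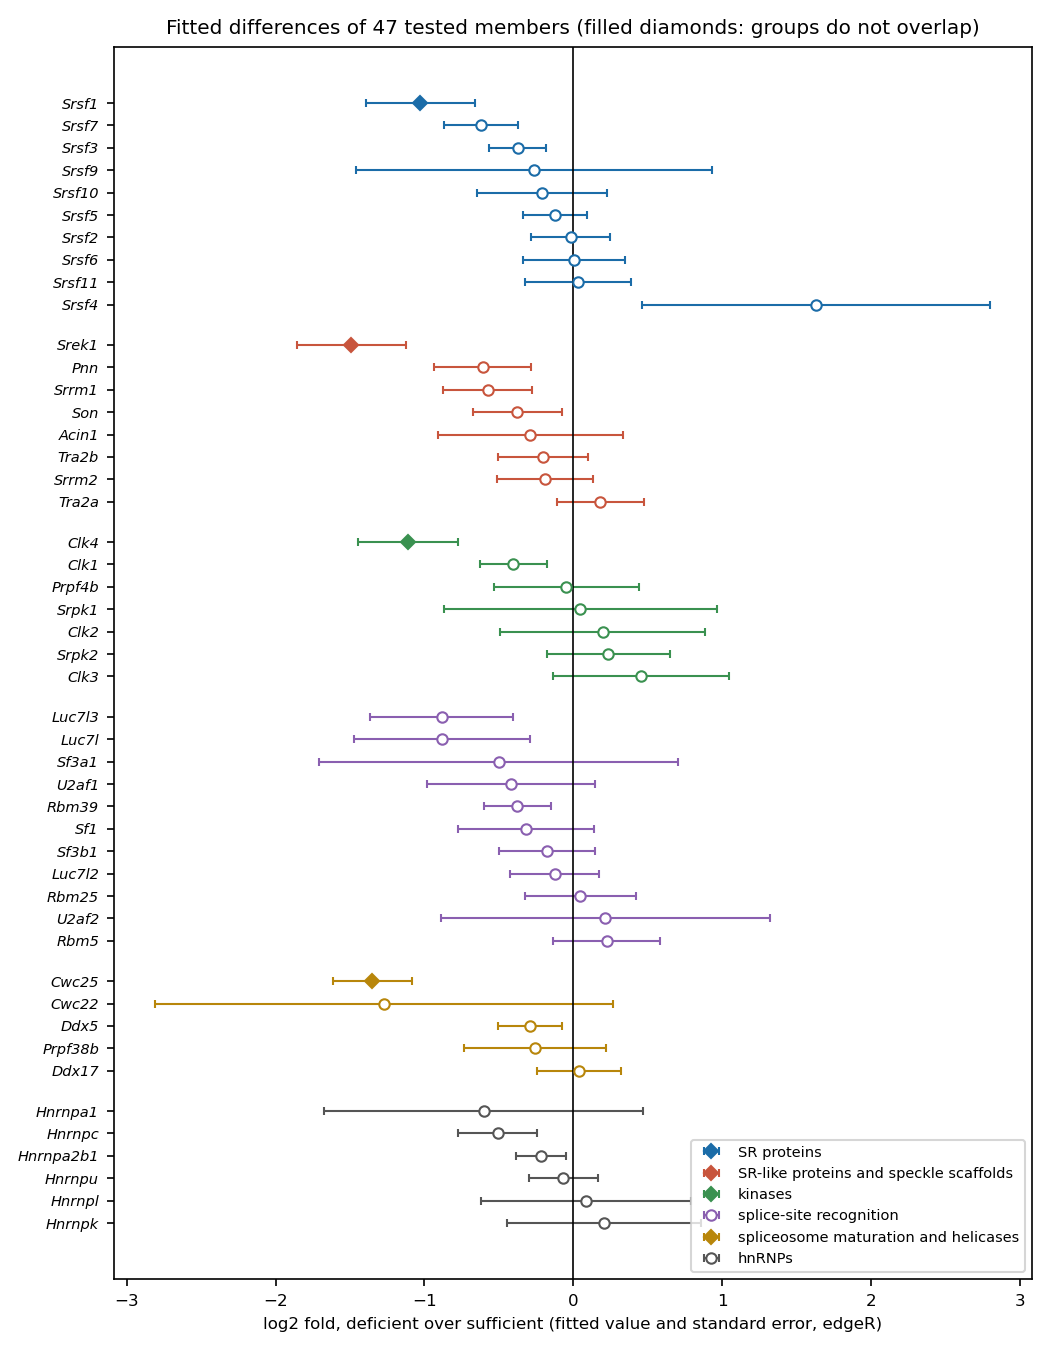
Fitted log2 fold of deficient over sufficient ILC3s for each of the 47 tested members, with its standard error (edgeR), grouped by role. Filled diamonds mark the 4 genes whose groups do not overlap: Srsf1, Srek1, Clk4 and Cwc25 at -1.03, -1.49, -1.11 and -1.35.

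Cwc25 encodes a factor that joins the spliceosome around the first catalytic step (chromosome 11, 97745470 to 97766613 in RefSeq, GRCm38.p6). It had 622, 372, 405 and 538 CPM in sufficient replicates 1 to 4 and 171, 252, 141 and 197 CPM in deficient replicates 5 to 8. The lowest sufficient library, replicate 2, lay above the highest deficient one, replicate 6. Means were 484 ± 116 and 190.0 ± 46.9 CPM (SD, n = 4 each), with a fitted log2 fold of -1.35 and a standard error of 0.267. Over the 21 alternative settings the log2 fold stayed between -1.51 and -1.20. Among the other late factors, Cwc22, which brings the exon junction complex to the spliceosome, had 34.1 ± 34.4 against 14.2 ± 15.1 CPM and ranged from 0.108 to 76.3 CPM, so its fitted log2 fold of -1.27 carried a standard error of 1.54 and became -0.51 without sufficient replicate 1. Prpf38b, whose relative PRPF38A is a factor of spliceosome activation, had 152 ± 78.6 against 128 ± 64.5 CPM. Ddx5 and Ddx17 encode related RNA helicases. Ddx5 had 2078, 2562, 2576 and 2985 CPM in sufficient and 1929, 2855, 1593 and 1957 CPM in deficient libraries, and Ddx17 214 ± 48.7 against 219.8 ± 56.8 CPM. For Ddx5 deficient replicate 6 lay among the sufficient libraries and the other 3 lay below all of them. In all, 12 members overlap another counted gene, among them Ddx5 with Cep95, Ddx17 with Kdelr3, Son with Donson, Srrm2 with Elob, Srpk2 with Kmt2e, Hnrnpk with Rmi1 and Hnrnpu with Cox20, and reads of such pairs may be mixed because strand use in counting is unknown (not given in the sources used here).

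Srek1 encodes an SR-related regulator of splice-site choice (chromosome 13, 103738565 to 103774616). Its values were 224, 207, 142 and 238 CPM in sufficient and 41.2, 60.4, 76.4 and 110.2 CPM in deficient libraries. Sufficient replicate 3, the lowest of its group, still lay above deficient replicate 8, the highest of the other. The means were 203 ± 42.6 and 72.0 ± 29.2 CPM, with a log2 fold of -1.49 and a standard error of 0.366. Of the 8 SR-related and speckle genes 7 had lower fitted values, with a median of -0.33. Son had 4491, 5327, 4309.5 and 6873 CPM in sufficient and 3408, 6786, 2615 and 3388 CPM in deficient libraries. Here deficient replicate 6 was level with sufficient replicate 4, the highest of all, while the other 3 deficient libraries lay below every sufficient one. The speckle scaffolds Srrm1 and Srrm2 had 374 ± 113 against 251 ± 71.1 and 351 ± 54.5 against 308 ± 142 CPM. Pnn and Acin1, partners of the exon junction complex, had 163 ± 47.9 against 107 ± 23.7 and 61.1 ± 23.3 against 50.1 ± 29.5 CPM. The sequence-specific activators Tra2a and Tra2b had log2 folds of 0.18 and -0.20 with standard errors of 0.291 and 0.303, so neither exceeded its error.

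The CLK family was dominated by Clk1 and Clk4. Clk4 (chromosome 11, 51263114 to 51281770) had 481, 495, 755 and 933 CPM in sufficient and 299, 451, 168 and 316 CPM in deficient libraries. The groups did not overlap, although sufficient replicates 1 and 2 and deficient replicate 6 lay within a narrow range. Means were 666 ± 218 and 309 ± 116 CPM, with a log2 fold of -1.11 and a standard error of 0.335. Clk4 overlaps BC049762 in RefSeq, so the reads of this pair may not be fully separated. Its closest relative Clk1 had 1975, 1745, 2275 and 2435 CPM in sufficient and 1458, 2094, 1099 and 1731 CPM in deficient libraries, with a log2 fold of -0.40 and a standard error of 0.225. For Clk1 deficient replicate 6 lay within the sufficient range and replicate 7 was lowest. Of the 4 CLK transcripts, scaled to length and summed, Clk4 made up 17.6%, 20.1%, 23.1% and 25.2% in sufficient and 15.3%, 15.4%, 11.7% and 13.9% in deficient libraries, and Clk1 71.4% to 83.1%. The shares of Clk4 did not overlap between groups. They rest on the same counts as its CPM, so they are no second observation. Clk2 and Clk3 had 57.9 ± 40.1 against 66.4 ± 49.7 and 42.7 ± 20.5 against 58.6 ± 24.9 CPM. The SRPK genes Srpk1 and Srpk2 had log2 folds of 0.05 and 0.24 with standard errors of 0.918 and 0.412. Prpf4b, a kinase of tri-snRNP proteins, had 146 ± 41.0 against 141 ± 99.1 CPM, and of the 7 kinases 3 were lower and 4 higher in the fit.

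Among SR proteins 7 of 10 tested genes had lower fitted values, with a median log2 fold of -0.16. Srsf1, the founding SR protein and a splicing activator, had 132, 154, 119 and 218 CPM in sufficient and 50.7, 107, 86.8 and 60.4 CPM in deficient libraries (chromosome 11, 88046499 to 88053757). Sufficient replicate 3 lay just above deficient replicate 6, and no values overlapped. Means were 156 ± 43.9 and 76.2 ± 25.6 CPM, with a log2 fold of -1.03 and a standard error of 0.366. Srsf7, an RNA export adaptor and splicing regulator, was the SR gene with the highest CPM, at 2027, 2324, 2891 and 3042 in sufficient and 1732, 1704, 1033 and 2226 in deficient libraries. Its groups overlapped, since deficient replicate 8 lay above sufficient replicate 1. Srsf3, the smallest SR protein, had 551 ± 83.7 against 425 ± 24.7 CPM, and Srsf5 808 ± 132 against 744 ± 154 CPM. Srsf2, Srsf6 and Srsf11 had log2 folds of -0.02, 0.00 and 0.03, each smaller than its standard error. Srsf4 went the other way with the largest fitted value of the group, 1.63, and a standard error of 1.17. Its values were 1.13, 27.0, 16.6 and 2.99 CPM in sufficient and 33.5, 73.6, 30.4 and 10.2 CPM in deficient libraries, and deficient replicate 8 lay within the sufficient range. Srsf4 overlaps Gm12992 in RefSeq, Srsf2 overlaps Mfsd11 and Srsf9 overlaps Gatc, so their counts may hold reads of these neighbours. Srsf9 and Srsf10 ranged from 0.57 to 55.7 and from 53.9 to 225 CPM over the 8 libraries.

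**Figure D3:**
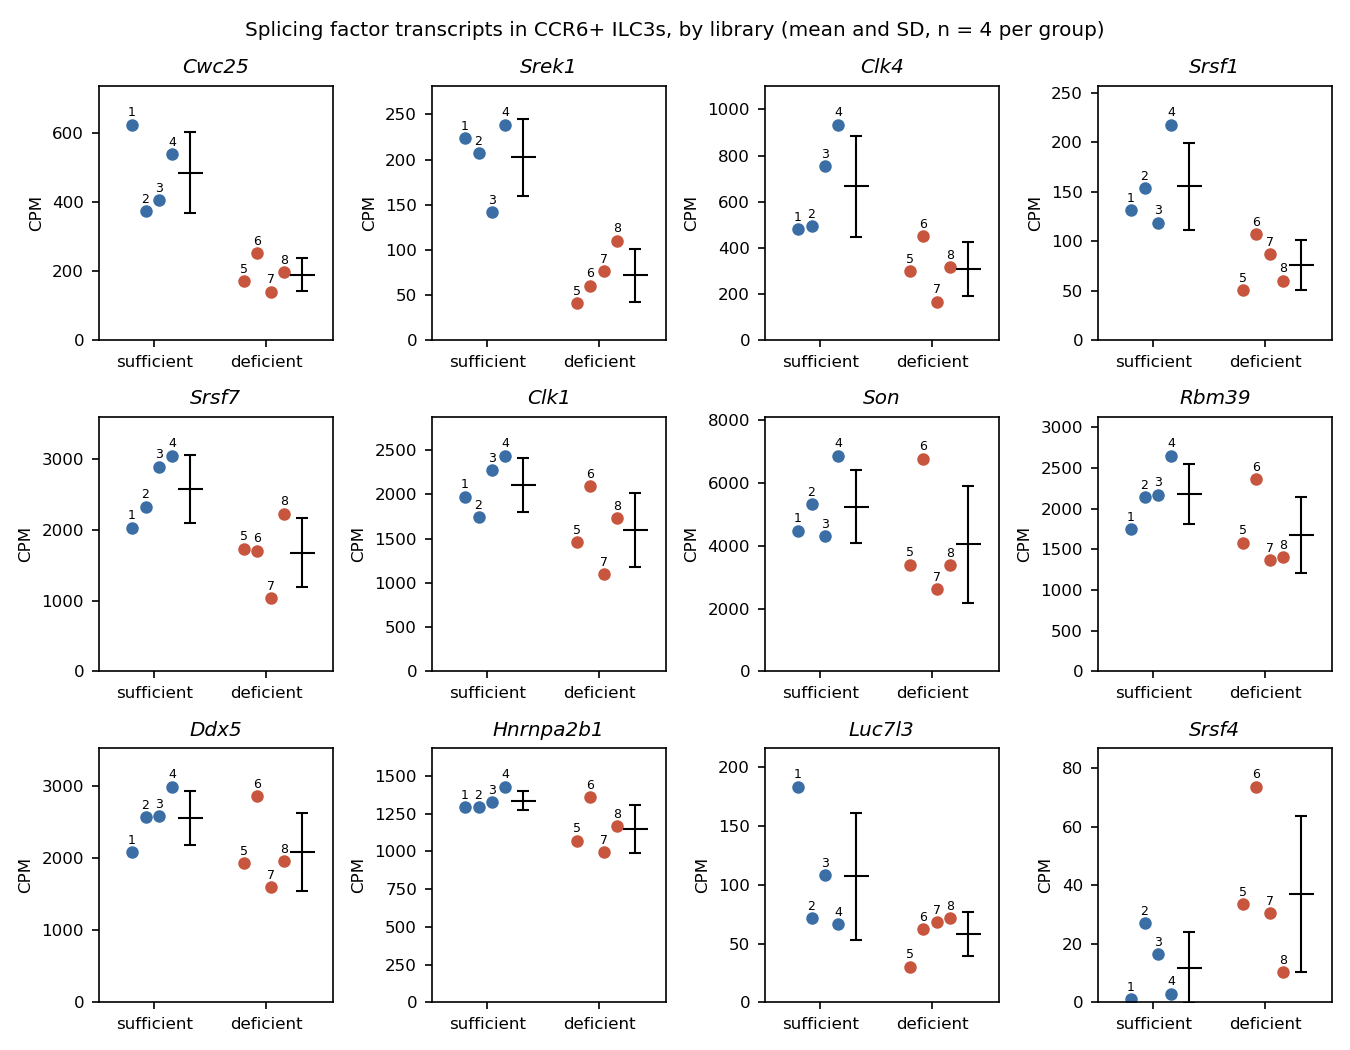
CPM of 12 members in each library (points, numbered by replicate) with the mean and SD of each group beside them, each panel starting at 0. In the top row no deficient library reaches the lowest sufficient one, while deficient replicate 6 lies among the sufficient libraries for Clk1, Son, Rbm39, Ddx5 and Hnrnpa2b1.

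Factors that recognise splice sites had 8 of 11 lower fitted values and a median log2 fold of -0.32, and no member separated the groups. Rbm39, the most abundant of them by CPM, had 1745, 2137, 2169.5 and 2647 CPM in sufficient and 1581, 2363, 1364 and 1399.8 CPM in deficient libraries, where replicate 6 alone lay within the sufficient range. The LUC7-like genes encode U1-associated proteins that bear on 5' splice-site choice. Luc7l3 had 183, 71.4, 108 and 66.3 CPM in sufficient and 30.4, 62.2, 68.2 and 71.5 CPM in deficient libraries, so that the difference of its means, 107 ± 54.0 against 58.1 ± 18.8 CPM, leaned on sufficient replicate 1. Luc7l had 51.1, 180.3, 46.3 and 73.5 CPM in sufficient libraries and a mean of 47.7 ± 24.3 CPM in deficient ones, and its log2 fold of -0.88 became -0.26 without sufficient replicate 2. Luc7l2 had 210.5 ± 44.0 against 193 ± 60.0 CPM. Sf3b1, the branch-site clamp of the U2 particle, had 1248 ± 358 against 1105 ± 454 CPM. The U2AF subunit genes U2af1 and U2af2 had 52.4 ± 13.0 against 39.2 ± 13.8 and 8.99 ± 2.94 against 10.4 ± 2.26 CPM, and the branch-point binding gene Sf1 114 ± 60.9 against 91.1 ± 25.9 CPM. Sf3a1 spread from 0.197 to 87.6 CPM within the sufficient group alone. Rbm5 and Rbm25, regulators of alternative exons in apoptosis genes, had log2 folds of 0.22 and 0.05, each within its standard error.

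The hnRNP genes had 4 of 6 lower fitted values and a median log2 fold of -0.14. Hnrnpa2b1, which binds pre-mRNA and some exported RNAs, had 1294, 1292, 1328 and 1428 CPM in sufficient and 1071, 1357, 994 and 1169 CPM in deficient libraries, and its coefficient of variation within groups, 9.22%, was the smallest of the 47. Deficient replicate 6 again lay within the sufficient range. Hnrnpc had 388 ± 125 against 273 ± 45.8 CPM and Hnrnpu, a nuclear matrix protein, 301 ± 46.1 against 287 ± 55.5 CPM. Hnrnpk and Hnrnpl had log2 folds of 0.20 and 0.08 with standard errors of 0.651 and 0.706. Hnrnpa1 had 15.8, 8.65, 12.9 and 19.0 CPM in sufficient and 6.62, 11.5, 9.35 and 9.64 CPM in deficient libraries, which overlapped. Among members averaging 100 CPM or more the median coefficient of variation within groups was 29.6%, against 32.7% over all tested genes at that level.

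Many members had their extremes in the same few libraries. Of the 32 members averaging 100 CPM or more, 16 had their highest value in sufficient replicate 4 and 7 in deficient replicate 6, while 15 had their lowest value in deficient replicate 7 and 8 in deficient replicate 5. Over the 1828 tested genes at that level the corresponding shares were 14.1%, 18.9%, 14.8% and 11.9%. For deficient replicate 6 the share of members with their highest value there, 21.9%, was thus close to that of all genes. The member shares for sufficient replicate 4 and deficient replicates 7 and 5 lay further above those of all genes. All 48 members together took 2.28%, 2.42%, 2.42% and 3.01% of scaled counts in sufficient and 1.81%, 2.77%, 1.48% and 1.89% in deficient libraries, so replicate 6 lay within the sufficient range and replicates 5, 7 and 8 below it. The sum is weighted towards the most abundant members, such as Son, Ddx5 and Srsf7 with means of 4650, 2317 and 2122 CPM over the 8 libraries.

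Malat1, a noncoding RNA held in nuclear speckles, was highest in replicates 6 and 4 and lowest in replicates 7 and 5, as was the sum of the members. It had 51068, 66468, 43969 and 73221 CPM in sufficient and 31728, 89385, 19539 and 44817 CPM in deficient libraries. The order between these ends differed. For Malat1 sufficient replicate 3 lay below deficient replicate 8, while the members took 2.42% and 1.89% of scaled counts there. Its group means of 58682 ± 13496 and 46367 ± 30479 CPM gave an exact two-sided permutation p of 0.486 (n = 4 each), where the smallest possible is 0.0286. Mitochondrially encoded transcripts were at the opposite ends in replicates 6 and 7, with 8397 and 18137 CPM in sum, the lowest and highest of the 8 libraries. Sufficient replicate 4 went the same way, with 9612 CPM beside 3.01% of scaled counts in the members. Sufficient replicate 3 and deficient replicate 5 did not, with 17189 and 11386 CPM beside 2.42% and 1.81%. With log2 Malat1 as a covariate, an alternative added after the data were seen, 30 of 47 members had lower fitted values and their median log2 fold was -0.09, beside -0.11 over all tested genes. Cwc25, Srek1, Clk4 and Srsf1 then had log2 folds of -1.20, -1.45, -0.89 and -0.88. Without replicate 6 alone 38 members were lower, with a median of -0.47, beside -0.02 over all tested genes. Without replicate 7 alone 31 were lower, with a median of -0.18, beside 0.01 over all tested genes.

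**Figure D4:**
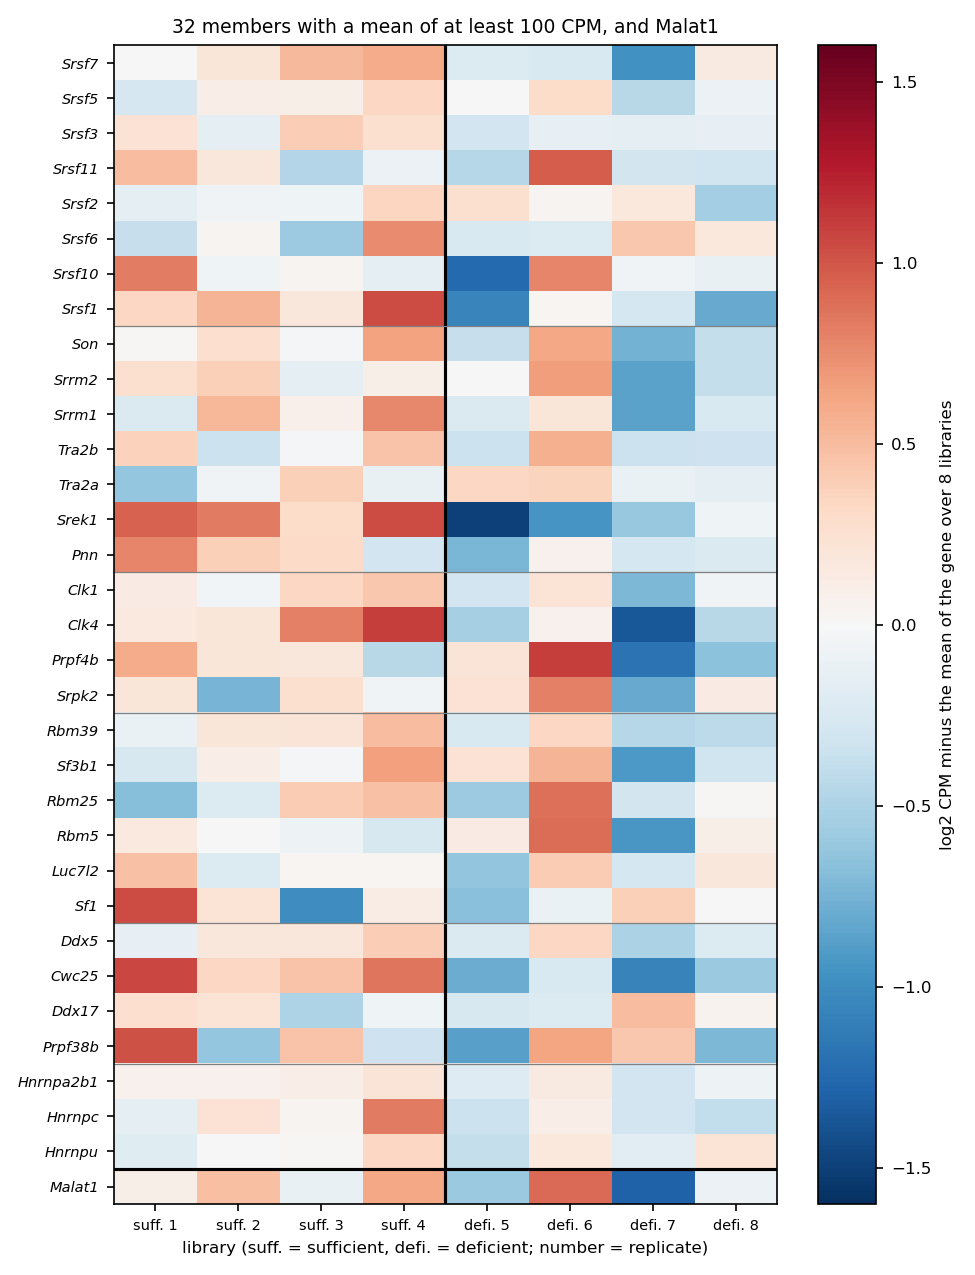
Log2 CPM of each of the 32 members averaging 100 CPM or more, minus the mean of that gene over the 8 libraries, with Malat1 in the last row and the groups divided by the vertical line. Deficient replicate 7 is low and deficient replicate 6 high in many rows and in Malat1, while Srek1 and Cwc25 are low in all 4 deficient libraries.

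Other genes of the pathway were read from lists of related factors. Of 30 tested Sm, LSm and U snRNP genes 20 were lower and 10 higher, at a median log2 fold of -0.07, and 0 passed the test. The 2 with the smallest p, the LSm ring genes Lsm6 and Lsm4, had 115 ± 19.5 against 168 ± 57.0 and 105 ± 41.2 against 152 ± 19.7 CPM. Of 37 tested genes of the catalytic core, the Prp19 complex and the step factors 18 were lower and 19 higher, with a median of 0.01, and 0 passed. Isy1 and Plrg1, both linked to the Prp19 complex, were the 2 of 37 without overlap, both lower, where 2.1% of all tested genes were lower without overlap. Among genes averaging 100 CPM or more, as Isy1 does, that share was 4.16%. Isy1 had 356, 573, 415 and 714 CPM in sufficient and 274, 274, 214 and 209 CPM in deficient libraries, with an adjusted p of 0.515 in edgeR, and Plrg1 84.7 ± 26.6 against 20.6 ± 14.2 CPM with 0.983.

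Of 17 tested genes of the exon junction complex and nonsense-mediated decay 11 were lower and 6 higher, with a median of -0.29, and 0 passed. The junction complex gene Magoh had 1038 ± 115 against 722 ± 113 CPM without overlap (edgeR adjusted p 0.983), and its paralog Magohb may share reads with it. The decay helicase gene Upf1 had 23.4 ± 10.1 against 8.81 ± 3.07 CPM. Other hnRNPs and regulators of alternative splicing had 19 of 41 lower, with a median of 0.06, and 0 passed. Sfpq, a paraspeckle protein gene, had 552 ± 147 against 368 ± 109 CPM, Fubp1 75.6 ± 19.1 against 118 ± 33.1 CPM and Taf15, named after its values were seen because its groups did not overlap, 32.5 ± 5.37 against 6.45 ± 7.46 CPM. Of 5 tested long noncoding RNAs 4 were lower and 0 passed, with Gas5, a host of small nucleolar RNAs, at 1836 ± 85.0 against 1149 ± 293 CPM without overlap (edgeR adjusted p 0.778) and Xist at 325 ± 112 against 205 ± 35.3 CPM. Mitochondrially encoded genes had 4 of 10 lower and 0 passed, with mt-Co1 at 1978 ± 438 against 1699 ± 293 and mt-Nd1 at 2945 ± 631 against 3596 ± 1369 CPM. Magoh, Taf15 and Gas5 were each the 1 gene without overlap among the 17, 41 and 5 tested in their lists, against 2.1% of all tested genes lower without overlap. Among genes averaging 100 CPM or more, as Magoh and Gas5 do, that share was 4.16%.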

How the data were processed

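Reads per gene were measured in 8 libraries of sorted ILC3s, made with a SMARTer low-input kit per the labels' protocols. CASAVA 1.8.2, STAR 2.3.0 and the build mm10 are named in the submitters' processing notes. The counting tool, annotation, strand use and handling of multiply mapped reads were not given in the sources used here. Whole-number counts per Entrez gene, with no normalization, are what the authors deposited. Of 27179 rows 25275 matched a symbol in the RefSeq table of GRCm38.p6, and the rest held 0.303% of counts.

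Groups came from the sample titles. The main test was edgeR 4.0.16 (R 4.3.3), a quasi-likelihood F test on TMM-scaled counts, after filterByExpr with the groups, with Benjamini-Hochberg adjustment over 8878 genes and calls under 0.05. It was also run on simulated counts, whose outcome is not given here, so the size of difference it can detect is not stated. CPM use TMM-scaled totals of the tested genes, folds are deficient over sufficient, and standard errors come from the F statistic. A count of 0 allows 3 counts, and such limits cover counting error only. Each library is 1 mouse, so the spread within a group holds mouse and preparation together. The members, gene lists and motifs were chosen with earlier results of these data known. Values in every library are given for members without overlap, with an unadjusted p under 0.05, highest or with the largest fold in their role, or not past the filter; each list adds the 2 genes with the smallest p. The driver of the Cre is not reported here. Alternatives used DESeq2 1.42.0, limma 3.58.1 and sva 3.50.0.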

Additional observations from a re-analysis of the deposited data

How the results depend on the processing

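Replicate numbers run from 1 to 8 across the groups. No paired analysis was possible because the groups share no number. Of 21 alternatives, 19 were listed in advance. DESeq2 called 374 genes over the whole table against 0 with edgeR, including 2 members, Cwc25 and Srek1, and outside the list Zbtb46 (-4.30) and Isy1 (-1.07). In the edgeR and limma-voom settings no member passed. Without a filter edgeR called 2 genes, and among genes averaging 100 CPM or more 4. With 1 library left out it called 0 to 2, the 2 without replicate 6. The median log2 fold of the members stayed below 0 in all 21 settings, at -0.47 to -0.16 with 1 library left out (lowest without replicate 6) and -0.09 with the Malat1 covariate, and 30 to 38 members were lower, or 23 of the 32 when the fit held only genes averaging 100 CPM or more. The gap to the median of all genes was not kept in 3 of them: all genes had -0.24 against -0.24 for the members with DESeq2, -0.19 against -0.21 without a filter, both of which add genes of low counts, and -0.11 with the Malat1 covariate. RLE, upper-quartile and no scaling factors gave 33, 32 and 30 lower. Of 972 member values under alternatives 5 moved by more than the spread between replicates: Sf3a1 to 1.59 with limma-voom, Srsf9 to -2.43 with the Malat1 covariate, and Srsf1, Acin1 and Prpf38b to -1.48, -1.17 and -1.07 without replicates 6 and 7. These last 2 settings were added after the data were seen. mt-Nd1 turned to -0.041 from 0.29 with the Malat1 covariate. The cause of these moves was not tested. The tested members under 20 CPM, U2af2 and Hnrnpa1, had fitted standard errors above 1 on the log2 scale, so a 2-fold difference lies within 1 standard error for them. Srsf4, Srsf9, Sf3a1 and Cwc22 also had errors above 1. The coefficients of variation within groups of U2af2 and Hnrnpa1 were 27.2% and 26.4%, against a median of 30.8% over the members.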

Other observations

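Other motifs in the 250 bases before the start were counted on both strands in the same windows. The GC box GGGCGG was present in 30 of 45 members (66.7%) and in 65.2% of the other tested genes with a window, and the CCAAT box CCAAT in 21 members (46.7%) against 40.5%. The E-box CACGTG was present in Clk2 and Ddx5 (4.44% of members) against 10.5% of other tested genes. The full cyclic AMP response element TGACGTCA was present in Clk4 and Tra2a, and in 3.59% of the other tested genes.

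In the members given library by library, and in Malat1, the number of detected genes and the summed members, 32 groups of 4 libraries were examined for a library far from the other 3, and 0 stood out, where chance gives about 1.6.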
